A study of Mus musculus with 41 samples.

Results

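Thymic epithelial cells (TEC) were compared with the other stromal cells (nonTEC) of the unoperated, middle-aged mouse thymus. The 6 arrays used were those whose labels give an unoperated animal of 9 to 12 months, 3 of TEC and 3 of nonTEC, out of 41 arrays in the series. All came from male C57Bl/6 mice, a common inbred laboratory strain, and carried no transgene or deleted allele in the labels. TEC had been sorted as CD45-, EpCAM+ cells and nonTEC as CD45-, EpCAM- cells, where CD45 is the common leukocyte antigen and EpCAM an adhesion protein of epithelium. The remaining arrays were of the same fractions from young unoperated mice of 5 to 6 weeks and from castrated or sham-castrated middle-aged mice, and the young, day 4 and day 7 groups are used below where stated. Whether each array stands for its own animal or for a pool is not in the labels, and p-values then reflect no more than the spread from array to array, which may be technical.

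The thymus is the organ in which T cells mature, and its stroma provides the signals they need. Cortical TEC carry the Notch ligand, chemokines and peptide-processing enzymes that start and positively select thymocytes, and medullary TEC, under the regulators Aire and Fezf2, transcribe genes of other tissues so that self-reactive thymocytes are deleted. Fibroblasts, endothelium and pericytes lie around this epithelium, build its matrix and vessels and release growth factors such as FGF7, FGF10 and BMP4. With age the organ shrinks and the balance of its epithelium and mesenchyme shifts.

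Values are the deposited normalized intensities, taken as log2, and differences are TEC minus nonTEC on that scale, given ± SE from a limma fit of all 41 arrays. The words higher and lower are used for genes with a Benjamini-Hochberg adjusted p under 0.05 in that fit, and large differences are those of 2 or more on the log2 scale, which is 4-fold. The 2 fractions had been normalized separately: the median of the probes present in both was 6.96 to 7.06 on the TEC arrays and 7.34 to 7.35 on the nonTEC arrays, and the median difference over all 7732 genes tested was -0.25. Small differences therefore have no settled sign, and the text turns on large differences and ranks. The TEC arrays resembled each other less than the nonTEC arrays did. Their correlations over the 7732 genes tested were 0.815 to 0.914, with the lowest between arrays 2 and 3, against 0.960 to 0.973 in nonTEC. Those of young TEC were 0.982 to 0.989. The fit gave each gene the same variance in all 14 groups. Where a gene varied more on the middle-aged TEC arrays than elsewhere, its SE and p-value are therefore too small. The test of a difference with age, used below, shares this weakness. The number of arrays limits the precision. In sorted bulk RNA, fewer cells of a type and less RNA per cell cannot be told apart.

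Of the 7732 genes, 614 (7.94%) were at least 4-fold higher in TEC and 995 (12.9%) at least 4-fold lower. When the fractions were brought to the same scale by quantile normalization, the counts were 765 higher and 721 lower, and by centring each array 767 and 738, so that the share of higher genes among the large differences was 38.2% as deposited, 51.5% after quantile normalization and 51.0% after centring. The 3 TEC and 3 nonTEC arrays did not overlap for 4778 of the 7732 genes (61.8%), and for 605 of the 614 and 993 of the 995. At 16-fold or more, 160 genes were higher and 133 lower in TEC, and at 64-fold or more 13 were higher and 13 lower. Probes of a further 1633 genes had values in TEC alone and those of 1161 in nonTEC alone, and these genes have no difference here.

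**Figure D1:**
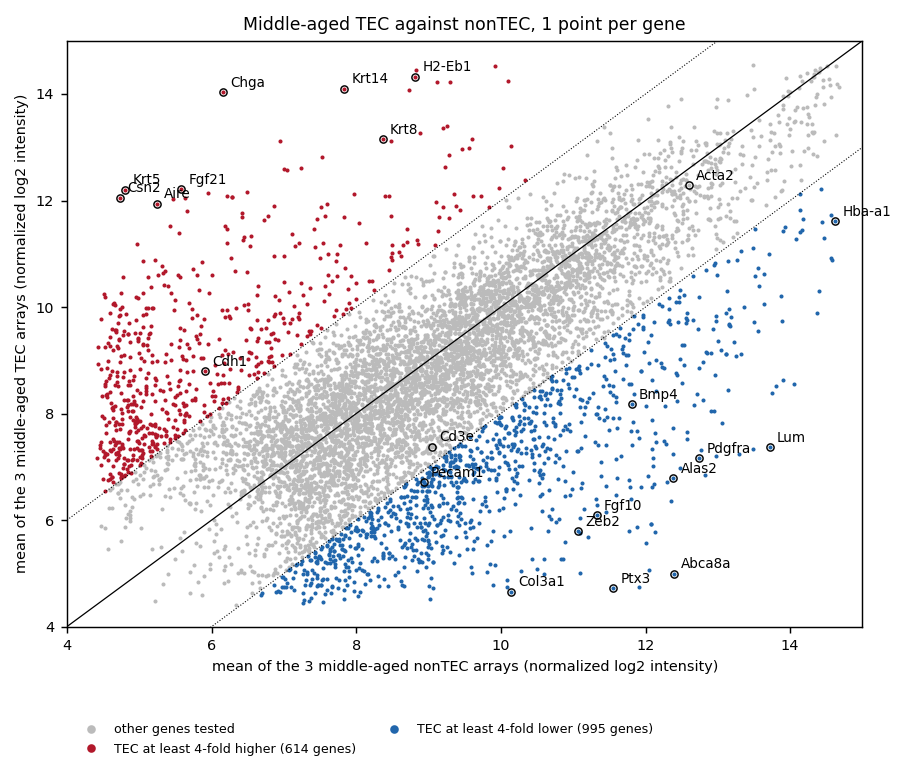
Mean normalized log2 intensity of each tested gene on the 3 middle-aged TEC arrays (vertical axis) against the 3 middle-aged nonTEC arrays (horizontal axis), with the solid line at equality and the dotted lines at 4-fold. The 614 genes at least 4-fold higher in TEC are red and the 995 at least 4-fold lower are blue, and the circled names mark genes described in the text.

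Both markers went with the labels. Krt8, a keratin of simple epithelia, measured 13.27, 12.73 and 13.45 on the TEC arrays, against 7.41, 9.00 and 8.69 on the nonTEC arrays, a difference of 4.79 ± 0.27 (limma adjusted p = 2.16e-16). Pdgfra, the platelet-derived growth factor receptor that marks fibroblasts, measured 6.34, 6.73 and 8.41 in TEC and 13.32, 12.64 and 12.26 in nonTEC, a difference of -5.58 ± 0.54 (limma adjusted p = 1.09e-10). The groups did not overlap for either gene, and TEC array 3 was the highest of its group for Pdgfra. By rank, Krt8 lay at the 98.6th percentile of the genes tested in TEC and at the 41.6th in nonTEC, and Pdgfra at the 24.3rd and the 96.3rd. Epcam itself was not analysed here, and Ptprc, which encodes CD45, had values in nonTEC alone, at 4.60, 5.13 and 4.64, near the low end of those arrays.

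The gene of largest difference was Chga, chromogranin A of neuroendocrine granules, with 14.32, 13.61 and 14.19 in TEC against 4.78, 7.35 and 6.36 in nonTEC (difference 7.88 ± 0.46, limma adjusted p = 8.52e-16). Krt5, the basal keratin of medullary TEC, followed with 12.49, 13.41 and 10.72 against 4.67, 4.80 and 4.94 (7.40 ± 0.45). Csn2, the milk protein beta-casein, an Aire-dependent tissue antigen, measured 11.95, 11.65 and 12.55 against 4.62, 4.93 and 4.65 (7.32 ± 0.27). These 3 genes had the largest positive differences of the 7732, with 1 of the 3 Chga probes at 4.23, and no TEC array came near any nonTEC array. Aire itself came next, with 11.82, 11.49 and 12.51 in TEC against 5.05, 4.74 and 5.93 in nonTEC (6.70 ± 0.30). Fgf21, a hormone-like fibroblast growth factor, followed at 12.23, 11.98 and 12.43 against 5.39, 5.51 and 5.85 (6.63 ± 0.21). The other genes among the 12 of largest positive difference were the lens crystallin gene Cryba2 (6.55 ± 0.36), the class II chaperone gene H2-Oa (6.41 ± 0.24), the basal keratin gene Krt14 (6.27 ± 0.36), the G protein subunit gene Gng13 of taste-type cells (6.22 ± 0.37), the urate pathway gene Urah (6.18 ± 0.24), Fezf2 (6.18 ± 0.23) and the ion transport regulator gene Fxyd3 (6.14 ± 0.28).

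At the other end, Abca8a, a lipid transporter gene, measured 4.86, 4.90 and 5.22 in TEC and 12.88, 12.41 and 11.90 in nonTEC (difference -7.40 ± 0.37, limma adjusted p = 1.24e-17). Pcolce2, which enhances procollagen processing, measured 4.86, 4.83 and 4.53 against 12.01, 12.38 and 11.32 (-7.16 ± 0.39). Ptx3, a secreted pentraxin of innate immunity, measured 4.50, 4.41 and 5.24 against 11.85, 12.13 and 10.68 (-6.83 ± 0.40). Their TEC values lay together at the low end of the arrays and did not overlap the nonTEC values. Also among the 12 of largest negative difference were the interferon-inducible genes Ifi205 (-7.00 ± 0.30) and Ifi207 (-6.43 ± 0.37), Lhfp (-6.35 ± 0.42), the small leucine-rich proteoglycan genes Lum (-6.35 ± 0.48) and Ogn (-6.06 ± 0.61), the hyaluronan synthase gene Has1 (-6.16 ± 0.56), the ferritin receptor gene Scara5 (-6.15 ± 0.64), the latent TGF-beta binding protein gene Ltbp1 (-6.15 ± 0.29) and Lrrn4cl (-6.07 ± 0.35). The second Scara5 probe differed by -0.50, and the mean of both gave -3.33. The size of such differences depends on the dim side. The 10th percentile of the shared probes was 4.79 in TEC and 5.05 in nonTEC, and 218 of the 614 higher genes had a nonTEC mean under it, whereas 50 of the 995 lower genes had a TEC mean under it.

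**Figure D2:**
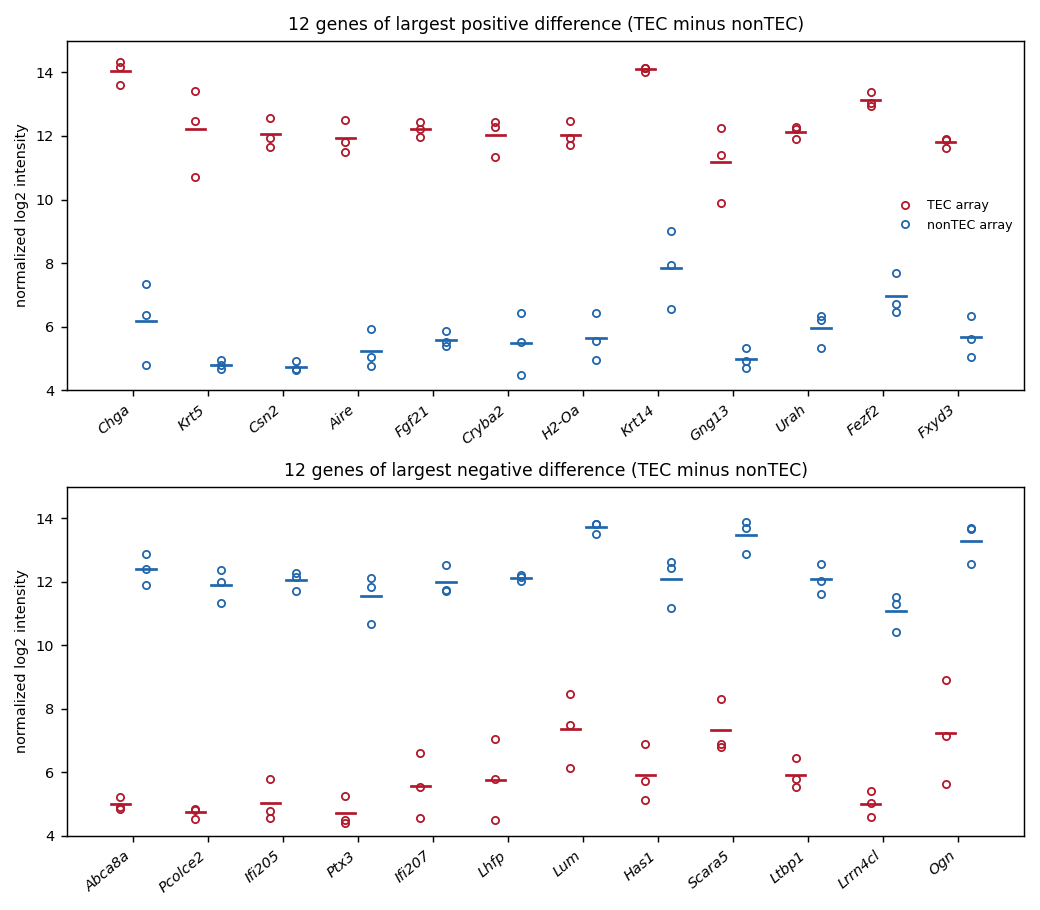
Normalized log2 intensity on each of the 3 middle-aged TEC arrays (red, left of each pair) and the 3 nonTEC arrays (blue, right), with bars at the group means, for the 12 genes of largest positive and the 12 of largest negative difference. No TEC circle overlaps a nonTEC circle for any of the 24 genes, and the spread within a group is wide for genes such as Chga in nonTEC and Ogn in TEC.

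Of 22 tested keratin, junction and epithelial protease genes, 18 were at least 4-fold higher in TEC, none was 4-fold lower, and the median difference was 3.77. Rab25, a trafficking GTPase of polarised epithelium, measured 11.50, 11.26 and 11.82 in TEC and 4.75, 5.85 and 5.66 in nonTEC (6.10 ± 0.21). Krt7 (5.85 ± 0.24), the tight junction gene Cldn4 (5.78 ± 0.31), the protease inhibitor gene Spint1 (5.60 ± 0.27) and Krt18 (5.38 ± 0.26) were of similar size. Cdh1, which encodes E-cadherin, differed less, at 9.12, 8.14 and 9.10 against 5.59, 5.87 and 6.26 (2.88 ± 0.25). The 7 tested epithelial transcription and splicing regulators were all at least 4-fold higher: the Ets factor gene Elf3 (5.38 ± 0.19), the basal epithelial factor gene Trp63 (4.16 ± 0.19), Grhl1 (2.86 ± 0.20), Klf5 (2.47 ± 0.24), Tfap2c (2.43 ± 0.24), Foxa1 (2.28 ± 0.29) and the splicing factor gene Esrp1 (2.26 ± 0.50). The second Elf3 probe differed by 2.59. Esrp1 was uneven in TEC, at 7.68, 4.40 and 8.49 against 4.43, 4.67 and 4.69 in nonTEC, and TEC array 2 lay at the nonTEC level. Esrp1 did not pass in a fit of only the arrays compared (limma adjusted p = 0.0847). Grhl2, the grainyhead factor that maintains epithelial junctions, had values in TEC alone, at 7.94, 7.64 and 8.34.

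Of the epithelial factors particular to the thymus, Eya1 (3.33 ± 0.20) and Pax1 (2.01 ± 0.21), which act in formation of the pharyngeal pouch, were the only ones tested and both were at least 4-fold higher in TEC, although the count was 1 without TEC array 1 or 2 or without nonTEC array 1 or 2. Pax1 was dim, at 6.59, 6.73 and 6.30 in TEC against 4.37, 4.41 and 4.80 in nonTEC. Both group means lay under the 7.24 that chose the genes tested, so Pax1 entered through another group. A stricter filter, at the 65th percentile, also gave a count of 1. Foxn1, the master regulator of TEC differentiation, had values in TEC alone and lay near the bottom of those arrays at 5.04, 4.52 and 4.73, a mean at the 11.1th percentile of TEC probes, so its level could not be read against nonTEC.

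Promoter sequence was read for these genes because the E-box CAGGTG, the element bound by the repressors of the ZEB and SNAI families, has been described in promoters of epithelial genes. RefSeq windows of 300 bases, 250 before to 50 after an annotated start on GRCm38.p6, were available for 10 of the 22 tested epithelial structure genes, and 9 of their 11 windows, from 9 of the 10 genes, held CAGGTG on either strand (Spint1 did not). The stretches around it are given for 4 of the 9 genes and for Elf3, 5′ to 3′ on the gene's strand, with the E-box in capitals in either orientation.
Krt7, chr15:101412312-101412411, plus strand: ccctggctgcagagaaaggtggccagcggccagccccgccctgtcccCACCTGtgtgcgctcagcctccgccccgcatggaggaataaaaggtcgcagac
Rab25, chr3:88548286-88548385, minus strand: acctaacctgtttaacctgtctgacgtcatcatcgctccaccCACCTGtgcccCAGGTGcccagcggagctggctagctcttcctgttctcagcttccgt
Cldn4, chr5:134946885-134946984, minus strand: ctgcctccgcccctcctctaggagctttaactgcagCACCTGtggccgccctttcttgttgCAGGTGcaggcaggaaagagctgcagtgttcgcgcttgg
Krt8, chr15:102004401-102004500, minus strand: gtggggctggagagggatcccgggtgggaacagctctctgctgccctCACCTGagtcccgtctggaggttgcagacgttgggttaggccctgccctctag
Elf3, chr1:135258560-135258659, minus strand: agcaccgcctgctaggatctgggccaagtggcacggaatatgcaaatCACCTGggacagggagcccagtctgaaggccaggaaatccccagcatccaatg

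Across all genes the same letters were found in 33.2% of the 615 windows of genes at least 4-fold higher in TEC, in 14.6% of the 1003 windows of genes at least 4-fold lower, in 18.2% of the 8102 windows of tested genes and in 20.2% of all 32851 windows. Of the 20 windows of 16 tested fibroblast genes, 3 held it. The related E-box CAGCTG was in 10 of these 20 windows, against 3 of the 11 windows of epithelial structure genes. The lead of the epithelial list over the fibroblast list was thus seen for CAGGTG and not for CAGCTG. It was not particular to CAGGTG. The letters TGANTCA, where N is any base, were in 3 of the 11 epithelial windows and 1 of the 20 fibroblast windows. They were in 9.76% of windows of higher genes, 6.88% of lower genes and 5.3% of tested genes. Of the related E-boxes, CAGCTG was found in 22.6% of windows of higher genes, 16.95% of lower genes and 15.1% of tested genes, and CACGTG in 6.50%, 8.87% and 10.1%. The median GC content was 56.7% in windows of higher genes, 60.3% in those of lower genes and 60.7% in those of tested genes. A gene can have several windows, the motifs were chosen with results known, and a match is a description of the letters and not of a bound site. The ZEB genes themselves were on the nonTEC side: Zeb2 measured 5.82, 6.19 and 5.37 in TEC and 11.64, 10.62 and 10.96 in nonTEC (-5.28 ± 0.28, limma adjusted p = 7.25e-17), and Zeb1 6.69, 7.39 and 6.98 against 11.24, 10.92 and 10.41 (-3.84 ± 0.32).

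**Figure D3:**
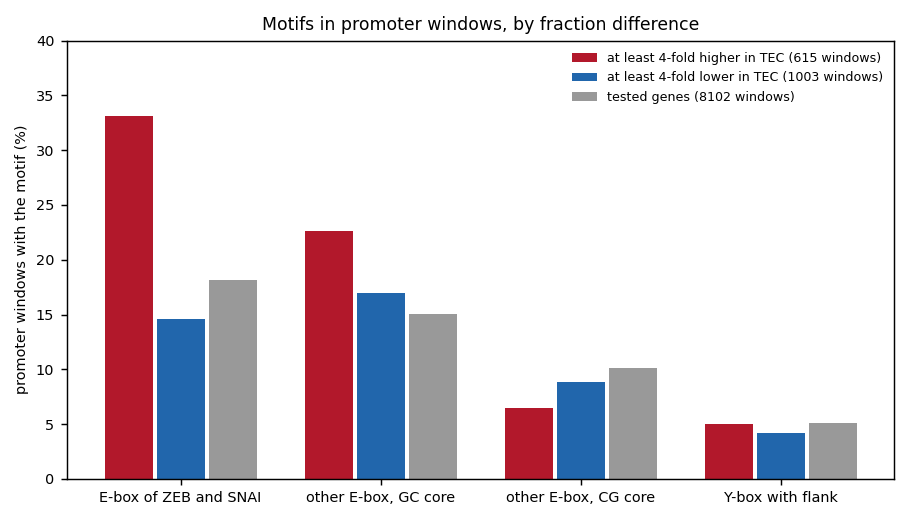
Share of 300-base promoter windows that hold each of 4 motifs on either strand, for genes at least 4-fold higher in TEC (red), genes at least 4-fold lower (blue) and all tested genes (grey), on an axis that starts at 0. The E-box of the ZEB and SNAI families stands at 33.2%, 14.6% and 18.2%, and the Y-box with its flank at 5.04%, 4.19% and 5.135%.

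Of 20 medullary TEC genes tested, 14 were at least 4-fold higher in TEC and none 4-fold lower (median 3.41). The NF-kappaB subunit gene Nfkb2 (-1.30 ± 0.19) and the chemokine gene Ccl19 (-0.65 ± 0.27) were lower by less than 4-fold. Only 1 gene of this list was lower after quantile normalization, centring or normal scores of ranks. Beside Krt5, Aire, Krt14 and Fezf2, which were among the 12 largest, Ccl21a, the chemokine that draws positively selected thymocytes into the medulla, measured 14.17, 14.16 and 14.34 in TEC against 8.64, 8.89 and 10.34 in nonTEC (4.93 ± 0.40). Krt14 was near the top of every TEC array at 14.01, 14.13 and 14.16, against 6.55, 7.92 and 9.02 in nonTEC. Krt5 was lower on TEC array 3 than on arrays 1 and 2, whereas Aire was highest on array 3. The costimulatory gene Cd40 (4.05 ± 0.19), the histidine decarboxylase gene Hdc (4.64 ± 0.24) and the RANK gene Tnfrsf11a (3.43 ± 0.33), named here after their values were seen, were higher with them. Of 7 tested Aire-dependent tissue antigens, 5 were at least 4-fold higher (median 4.66), among them Crp, an acute-phase protein of liver (4.91 ± 0.34), the endocrine granule gene Resp18 (4.79 ± 0.33) and the testis lipid-binding protein gene Fabp9 (4.66 ± 0.44). A further 9 genes of this list had values in TEC alone.

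Of 9 cortical TEC genes tested, 3 were at least 4-fold higher in TEC and 1 at least 4-fold lower (median 1.46). Tbata, a thymus stromal gene, measured 13.56, 12.62 and 13.63 in TEC and 7.48, 9.45 and 9.74 in nonTEC (4.38 ± 0.35, with 1 of its 3 probes at 1.03), Cd83, which stabilises class II on cortical TEC, 10.54, 8.47 and 10.42 against 5.45, 6.48 and 6.60 (3.63 ± 0.39), and the T cell growth factor gene Il7 11.43, 11.95 and 10.98 against 8.75, 8.49 and 8.85 (2.76 ± 0.20). Psmb11, the thymoproteasome subunit found only in cortical TEC, measured 8.0, 6.71 and 5.34 in TEC and 4.79, 5.42 and 4.73 in nonTEC. Its difference of 1.70 ± 0.45 passed the test (limma adjusted p = 0.00121) but was under 4-fold, and TEC array 3 lay within the nonTEC range. Psmb11 did not pass in a fit of only the arrays compared (limma adjusted p = 0.0611). The serine protease gene Prss16 measured 7.04, 4.52 and 7.36 against 5.08, 5.87 and 6.15, with overlapping groups (0.61 ± 0.50, limma adjusted p = 0.277), and its 2 probes disagreed in sign. The cathepsin gene Ctsl, at 7.99, 7.42 and 6.37 against 7.30, 7.07 and 7.22, did not pass either (0.07 ± 0.31). The lower gene of this list was Bmp4, which is described with the ligands.

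Genes of rarer epithelial states were found on the TEC side as well. Of 9 tested tuft and neuroendocrine genes, 6 were at least 4-fold higher in TEC and 1 at least 4-fold lower (median 2.64): after Chga came the actin regulator gene Avil of tuft cells, at 10.46, 9.28 and 11.50 against 5.50, 5.59 and 4.93 (5.07 ± 0.31), the synaptic vesicle gene Syt1 (5.05 ± 0.25) and the peptide hormone gene Cck (3.02 ± 0.28). The second Syt1 probe differed by 2.74. Trpm5, the taste-transduction channel of tuft cells, had values in TEC alone, at 8.31, 7.62 and 9.14. The lower gene was the leukotriene synthase gene Ltc4s (-2.95 ± 0.31), which mast cells and macrophages also use. Of 12 tested cornified epithelium genes, which mark the keratinised bodies of the medulla, 6 were at least 4-fold higher and none 4-fold lower (median 1.98), led by Krt16 at 8.93, 8.34 and 10.41 against 4.80, 4.58 and 4.73 (4.52 ± 0.36) and followed by Sprr1b (2.74 ± 0.24), Sprr1a (2.40 ± 0.31) and the cornified envelope gene Lor (2.34 ± 0.41). Sprr2a1 (-1.43 ± 0.38) and Sbsn (-1.05 ± 0.39) of this list were lower in TEC by less than 4-fold. After quantile normalization, centring or normal scores of ranks only 1 cornified gene was lower. Avil, Krt16, Lor, which was at 8.13, 6.28 and 9.54 in TEC, and Fabp9, at 9.32, 7.96 and 11.19, were all lowest on TEC array 2 and highest on array 3. Without array 3 the count of cornified genes at least 4-fold higher was 3.

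MHC class II presentation, by which TEC show peptides to CD4 T cells, had the highest median of the lists with at least 5 members tested, as deposited. Under normal scores of ranks its median was 5.19, against 5.43 for the Aire-dependent antigens. Of 10 class II genes tested, 9 were at least 4-fold higher in TEC (median 5.13). H2-Eb1, a class II beta chain, measured 14.18, 14.40 and 14.41 in TEC and 8.09, 9.01 and 9.34 in nonTEC (5.51 ± 0.20, limma adjusted p = 9.94e-21). Ciita, the transactivator that switches class II genes on, lay between 9.46 and 10.43 on the TEC arrays and between 4.49 and 5.02 on the nonTEC arrays (5.23 ± 0.26). The peptide-loading genes H2-DMa (5.52 ± 0.24) and H2-DMb1 (5.27 ± 0.19) and the invariant chain gene Cd74 (4.62 ± 0.28) were higher too. The exception was H2-Aa, whose probe gave 10.45, 6.33 and 11.09 in TEC against 6.38, 8.09 and 8.68 in nonTEC. TEC array 2 lay below every nonTEC array there, and the difference of 1.58 ± 0.77 did not pass (limma adjusted p = 0.0685). Promoter windows are shown for H2-Aa beside H2-Eb1 and H2-Oa because the class II genes share an upstream module whose last element is the Y-box. The letters CTGATTGG, a Y-box with its flank, were in 3 of 8 windows of 7 class II genes (37.5%), those of the genes shown, and in 5.135% of windows of tested genes. The core ATTGG, which CTGATTGG contains, was in 7 of the 8 windows (87.5%) and in 37.4% of windows of tested genes. CTGATTGG is in capitals.
H2-Eb1, chr17:34305759-34305858, plus strand: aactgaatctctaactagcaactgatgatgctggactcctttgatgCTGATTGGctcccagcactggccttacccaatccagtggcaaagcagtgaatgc
H2-Oa, chr17:34092287-34092386, plus strand: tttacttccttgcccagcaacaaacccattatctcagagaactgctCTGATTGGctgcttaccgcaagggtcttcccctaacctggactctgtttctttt
H2-Aa, chr17:34287821-34287920, minus strand: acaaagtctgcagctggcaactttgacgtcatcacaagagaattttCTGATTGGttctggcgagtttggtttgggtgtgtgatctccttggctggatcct

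Fibroblast genes had the most negative median of the lists with at least 5 members tested. Of its 27 tested genes, 25 were at least 4-fold lower in TEC, none was 4-fold higher, and the median was -4.36. Lum measured 7.48, 8.47 and 6.15 in TEC and 13.82, 13.83 and 13.51 in nonTEC, and Dpt, the matrix protein dermatopontin, 5.47, 4.91 and 7.24 against 11.85, 12.06 and 11.73 (-6.01 ± 0.41). The groups stood 4 or more units apart for both, and the spread was wider in TEC. Gsn, the actin-severing gelsolin gene, was at 7.82, 8.70 and 5.10 against 13.49, 12.79 and 12.65 (-5.77 ± 0.72), and the intermediate filament gene Vim at 8.97, 9.18 and 6.01 against 12.97, 12.97 and 12.77 (-4.85 ± 0.62). The second Gsn probe differed by only -0.44, and the mean of both probes gave -3.10. TEC array 3 was lowest for both Gsn and Vim, but highest for Pdgfra, Ogn and Dpt. The mean of the 27 genes was 7.86 to 8.26 on the TEC arrays, against 11.94 to 12.35 on the nonTEC arrays.

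Of 32 extracellular matrix genes tested, 20 were at least 4-fold lower in TEC and 1 at least 4-fold higher (median -2.74). The basement membrane linker gene Nid1 (-5.99 ± 0.38), the fibrillar collagen genes Col3a1 (-5.48 ± 0.30) and Col1a1 (-5.34 ± 0.35) and the laminin gene Lama2 (-5.41 ± 0.36) had the largest differences. Col1a1 measured 5.17, 6.12 and 5.97 in TEC and 11.43, 11.21 and 10.63 in nonTEC, and Col1a2, with values in nonTEC alone, 11.34, 10.62 and 10.52. The exception was Fmod, the proteoglycan fibromodulin, named because it was alone in this direction, which was higher in TEC at 8.02, 8.94 and 6.32 against 5.20, 5.25 and 5.18 (2.55 ± 0.38), and under 4-fold without TEC array 2. Of 18 tested mesenchymal transcription factors, 12 were at least 4-fold lower in TEC and none 4-fold higher (median -2.38). The lower count was 9 after quantile normalization, centring or normal scores of ranks. Ebf2, an early B cell factor family member of mesenchyme, measured 4.53, 4.36 and 5.31 against 10.51, 10.26 and 9.47 (-5.34 ± 0.25), with Zeb2, Runx1t1 (-4.49 ± 0.19) and the limb mesenchyme factor gene Prrx1 (-4.17 ± 0.25) next. Tcf21, a mesodermal factor, had values in nonTEC alone at 8.94, 9.60 and 9.56.

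**Figure D4:**
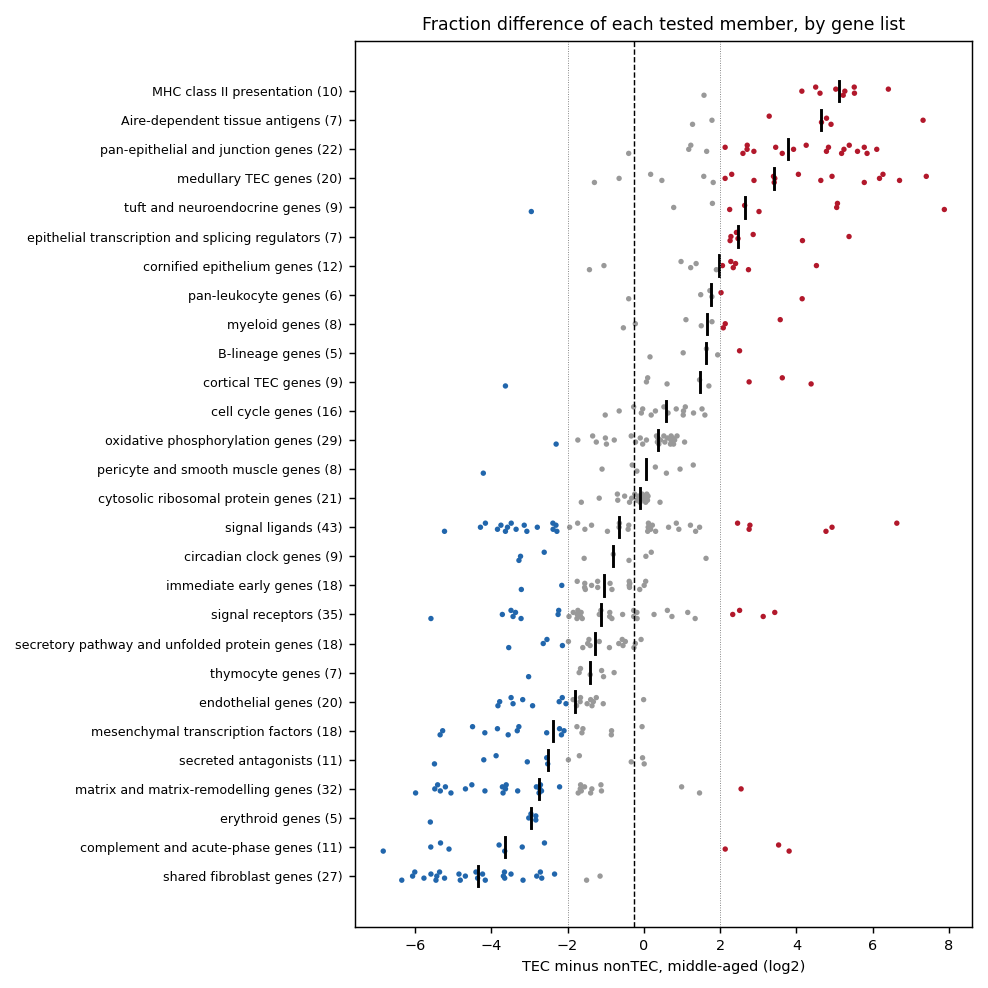
Difference of each tested member (TEC minus nonTEC, log2) in the gene lists with at least 5 members tested, ordered by median, with the number tested in brackets, short black bars at list medians, a dashed line at the median of all genes (-0.25) and dotted lines at 4-fold. Points at 2 or above are red and points at -2 or below are blue. MHC class II genes lie farthest right (median 5.13) and fibroblast genes farthest left (median -4.36), and ribosomal protein genes (median -0.10) cluster near the line of all genes.

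Of 20 endothelial genes tested, 9 were at least 4-fold lower in TEC and none 4-fold higher (median -1.81). The lower count was 6 after quantile normalization, centring or normal scores of ranks. Eng, the endothelial TGF-beta co-receptor, measured 7.03, 6.55 and 6.51 in TEC and 10.48, 10.37 and 10.73 in nonTEC (-3.83 ± 0.35). Emcn, an endothelial sialomucin gene, was uneven in TEC at 7.96, 6.77 and 5.62 against 10.17, 10.28 and 11.26 (-3.78 ± 0.57), as was Selp, the P-selectin gene, in nonTEC, at 6.22, 5.98 and 4.94 against 9.24, 7.61 and 10.73 (-3.48 ± 0.51). The angiopoietin receptor gene Tek differed by -3.43 ± 0.28, and the VEGF receptor gene Kdr had values in nonTEC alone, near the low end of those arrays at 5.00, 5.00 and 5.08. Pecam1, which encodes CD31, measured 7.78, 7.43 and 4.93 against 8.89, 8.40 and 9.51 (-2.22 ± 0.65, limma adjusted p = 0.00329), and without TEC array 3, the lowest of its group, the difference was -1.33 and did not pass. The mean over the 20 genes was 6.58 to 7.70 on the TEC arrays and 8.84 to 9.99 on the nonTEC arrays, with nonTEC array 3 the highest.

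Of 8 tested pericyte and smooth muscle genes, 1 was at least 4-fold lower in TEC and none 4-fold higher (median 0.06). Acta2, the smooth muscle actin gene, measured 11.69, 13.01 and 12.17 in TEC and 12.41, 12.37 and 13.01 in nonTEC. The groups overlapped, the difference of -0.31 ± 0.26 did not pass (limma adjusted p = 0.293), and its sign turned to 0.17 after quantile normalization. The smooth muscle myosin gene Myh11, at 8.25, 8.98 and 7.84 against 8.16, 7.80 and 8.21, did not pass either (0.30 ± 0.33). Des, the muscle intermediate filament desmin, was the gene past 4-fold, at 7.20, 7.87 and 7.94 against 11.97, 11.39 and 12.27 (-4.21 ± 0.25). Tagln (1.29 ± 0.33) and Mcam (0.95 ± 0.28) were higher in TEC and Myl9 (-1.10 ± 0.38) lower, each by less than 4-fold. Myl9 did not pass without TEC array 3 (-0.56), nor after quantile normalization, centring or normal scores of ranks. Neither Myl9 nor Mcam passed in a fit of only the arrays compared, and Mcam did not pass without nonTEC array 2. Acta2 and Myh11 are also used by myoid and myoepithelial cells, and which cells of the EpCAM+ fraction carried them was not tested.

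Mesothelial, Schwann and adipocyte genes were few on the shared probes. Of 3 tested mesothelial genes, Msln (2.98 ± 0.31) and Krt19 (3.92 ± 0.30), both also genes of other epithelia, were at least 4-fold higher in TEC, and Upk3b did not pass. Among the Schwann and glial genes Ngfr (1.46 ± 0.21) and Mbp (0.83 ± 0.23) were higher in TEC by less than 4-fold. Mbp did not pass in a fit of only the arrays compared. Lpl, the lipoprotein lipase gene of fat and other mesenchyme, was the only adipocyte gene tested, at 9.60, 8.85 and 10.19 against 13.56, 13.69 and 13.41 (-4.01 ± 0.30).

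Innate defence genes divided between the fractions. Of 11 complement and acute-phase genes tested, 8 were at least 4-fold lower in TEC and 3 at least 4-fold higher (median -3.65). On the nonTEC side, besides Ptx3, were the copper carrier gene Cp (-5.59 ± 0.31), the complement protease gene C1s1 (-5.33 ± 0.33) and the alternative pathway gene Cfb, at 4.64, 4.34 and 5.34 in TEC against 9.83, 9.90 and 9.93 in nonTEC (-5.11 ± 0.23). On the TEC side were the serum amyloid gene Saa3 (3.81 ± 0.34), the siderophore-binding gene Lcn2, at 11.43, 12.10 and 11.20 against 7.02, 8.11 and 9.00 (3.53 ± 0.38), and C1qb (2.13 ± 0.26), a macrophage gene. Saa3 and C1qb were named because they completed the 3 genes of this direction.

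Signal molecules were measured for 43 ligand genes, of which 6 were at least 4-fold higher in TEC and 16 at least 4-fold lower (median -0.65), and for 35 receptor genes, of which 4 were 4-fold higher and 8 were 4-fold lower (median -1.13). The paired genes below are members of these lists, some of them chosen after their values were seen, and a paired level of RNA says nothing of protein or of signalling. The FGF pair was split. Fgf7 measured 4.61, 4.81 and 6.15 in TEC and 9.41, 9.82 and 8.80 in nonTEC (-4.16 ± 0.31), and Fgf10 5.44, 5.51 and 7.33 against 11.63, 11.66 and 10.68 (-5.23 ± 0.52). Their receptor gene Fgfr2 measured 11.30, 10.96 and 11.22 in TEC and 8.75, 8.41 and 8.79 in nonTEC (2.51 ± 0.15). The ligands were thus high on every nonTEC array and the receptor on every TEC array.

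The PDGF system had the reverse layout. Pdgfb measured 8.46, 9.15 and 9.60 in TEC and 6.50, 6.33 and 7.01 in nonTEC (2.46 ± 0.30), and Pdgfa 11.01, 11.12 and 10.72 against 9.78, 9.91 and 10.61 (0.85 ± 0.15, under 4-fold). The receptor genes Pdgfra, given above, and Pdgfrb, at 4.59, 5.22 and 6.15 against 9.05, 8.75 and 8.60 (-3.48 ± 0.34), were lower in TEC. Among Wnt genes, Wnt4, which induces Foxn1 in TEC, measured 9.81, 10.45 and 9.32 in TEC and 4.74, 5.29 and 5.23 in nonTEC (4.77 ± 0.23). The Wnt receptor gene Fzd6 was higher in TEC with it (2.33 ± 0.24), whereas the non-canonical ligand gene Wnt5a was lower (-2.39 ± 0.33).

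Bmp4, a growth factor of TEC maintenance and regeneration, measured 8.26, 8.23 and 8.05 in TEC and 11.56, 11.97 and 11.90 in nonTEC (-3.63 ± 0.29), and the receptor gene Bmpr1a was lower in TEC as well, at 5.98, 4.90 and 5.79 against 9.06, 8.91 and 8.35 (-3.22 ± 0.29). Both genes of the TGF-beta pair Tgfb2 (-3.35 ± 0.28) and Tgfbr2 (-3.37 ± 0.22) were lower in TEC too. Vegfa, the main vessel growth factor, was at 8.27, 5.23 and 8.55 against 10.89, 10.44 and 10.14 (-3.14 ± 0.49, and -0.76 on its second probe), with TEC array 2 far below the others, and the co-receptor gene Nrp1 at 8.67, 9.14 and 8.34 against 12.78, 12.14 and 12.36 (-3.71 ± 0.25). Kit, the stem cell factor receptor, measured 8.62, 8.71 and 9.03 in TEC and 5.61, 4.97 and 6.40 in nonTEC (3.13 ± 0.31). Its ligand gene Kitl had values in nonTEC alone, near the low end at 5.00, 4.70 and 5.07. The chemokine gene Cxcl12 overlapped at 11.57, 10.73 and 9.75 against 10.25, 10.64 and 10.86 (0.10 ± 0.38, not passing the test), and its probes disagreed in sign. Of 11 secreted antagonists 6 were at least 4-fold lower in TEC and none 4-fold higher (median -2.52), led by the IGF-binding protein genes Igfbp7, at 9.90, 5.93 and 9.85 against 14.09, 13.90 and 14.17 (-5.49 ± 0.65), and Igfbp6 (-4.20 ± 0.33), followed by the activin-binding gene Fstl1 (-3.88 ± 0.33).

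**Figure D5:**
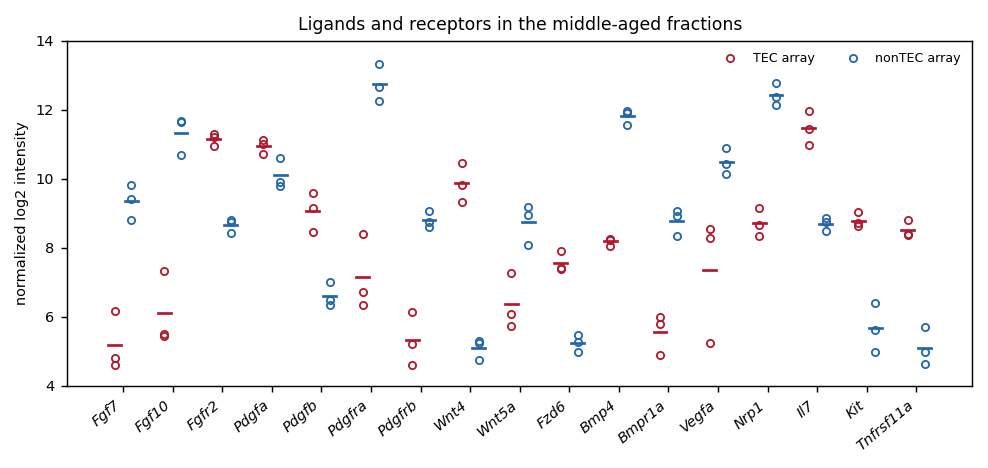
Normalized log2 intensity of 17 ligand and receptor genes on each of the 3 middle-aged TEC arrays (red, left of each pair) and the 3 nonTEC arrays (blue, right), with bars at the group means. Fgf7 and Fgf10 are high in nonTEC and Fgfr2 in TEC, Pdgfb is high in TEC and Pdgfra and Pdgfrb in nonTEC, and 1 TEC array is low for Vegfa.

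Genes of leukocytes, which the CD45- gate leaves out, and of erythroid cells differed in level from gene to gene. Several lay near the low end of the nonTEC arrays and had no TEC values: beside Ptprc these were Cd4, at the 8.27th percentile of nonTEC probes, Themis, which measured 4.83 to 5.46, Cd53 at the 17.8th, Ptcra at the 21.9th and Tyrobp at the 22.4th. Of 7 tested thymocyte genes 1 was at least 4-fold lower in TEC and none 4-fold higher (median -1.41). Cd3e measured 7.35, 7.05 and 7.73 in TEC and 8.36, 9.15 and 9.62 in nonTEC (-1.66 ± 0.62, limma adjusted p = 0.0176), Cd8b1 9.52, 8.76 and 9.62 against 10.24, 11.11 and 11.64 (-1.70 ± 0.64, with 1 of its 3 probes of the opposite sign), and Lat, the adaptor that was the gene past 4-fold, 4.70, 4.30 and 5.18 against 7.00, 8.03 and 8.22 (-3.02 ± 0.50). The mean of the 7 genes was 6.30 to 6.90 on TEC arrays and 7.51 to 8.69 on nonTEC arrays, and nonTEC array 1 was the lowest of its group. Without that array 3 of the 7 genes were at least 4-fold lower in TEC. The Cd3e and Cd8b1 differences did not pass without TEC array 2 (-1.50 and -1.43) or without nonTEC array 3 (-1.37 and -1.38), nor after quantile normalization (-1.35 and -1.33), centring (-1.34 and -1.38) or normal scores of ranks (-1.09 and -1.13). The thymocyte genes lower at an adjusted p under 0.05 numbered 5 of 7 as deposited, 2 after quantile normalization, 1 after centring and 2 under normal scores. Leukocyte genes other than these leaned to TEC: 2 of 6 pan-leukocyte genes were at least 4-fold higher (median 1.76), 3 of 8 myeloid genes (median 1.64) and 1 of 5 B-lineage genes (median 1.64), and none was 4-fold lower. After quantile normalization or centring 4 pan-leukocyte and 2 B-lineage genes were at least 4-fold higher, and the B-lineage count was 3 under normal scores and 0 with the mean of all probes. The counts moved with single arrays too: the myeloid one was 5 without TEC array 2, the pan-leukocyte one was 1 without TEC array 1 or without nonTEC array 1, and the B-lineage one was 2 without TEC array 1 or 2 or without nonTEC array 2 or 3. Cd52, a leukocyte surface antigen, measured 11.60, 10.91 and 12.64 in TEC and 6.64, 7.43 and 8.64 in nonTEC (4.15 ± 0.34, and 0.93 on its second probe), the lysozyme gene Lyz1 12.94, 12.11 and 13.53 against 8.31, 8.74 and 10.81 (3.57 ± 0.36), and the B-cell receptor gene Cd79b 7.41, 7.44 and 8.87 against 4.95, 5.71 and 5.53 (2.51 ± 0.35). The pan-leukocyte mean was 9.88 to 10.05 in TEC and 7.67 to 8.67 in nonTEC. All 5 erythroid genes tested were at least 4-fold lower in TEC (median -2.96). Alas2, the erythroid haem synthesis gene, measured 6.92, 5.71 and 7.72 against 12.49, 12.49 and 12.17 (-5.60 ± 0.42), and the globin gene Hba-a1 12.32, 11.81 and 10.69 against 14.57, 14.64 and 14.66 (-3.02 ± 0.30). The part of these transcripts in the class II, complement and chemokine differences was not tested.

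Few housekeeping genes differed by 4-fold between the fractions. None of 21 ribosomal protein genes (median -0.10) and none of 16 cell cycle genes (median 0.58) differed by 4-fold, and 1 of 29 oxidative phosphorylation genes, Atp5a1, did (-2.30 ± 0.39, with probes that disagreed in sign; median of the list 0.37). That count was 0 without TEC array 2 and 2 without TEC array 3. Among ribosomal protein genes, Rps6 measured 12.80, 13.40 and 8.63 in TEC and 13.07, 13.40 and 13.30 in nonTEC, a difference of -1.64 ± 0.62 that was -0.15 without TEC array 3. Of 18 immediate early genes, Klf4 (-3.21 ± 0.34) and Myc (-2.15 ± 0.36) were at least 4-fold lower in TEC (median -1.05), and Fos measured 12.87, 9.58 and 13.30 against 13.93, 13.45 and 13.62 (-1.75 ± 0.62, and -0.58 without TEC array 2). Of 18 secretory pathway and unfolded protein genes 4 were at least 4-fold lower in TEC and none 4-fold higher (median -1.29): Dnajb9, at 8.14, 4.82 and 8.71 against 10.83, 10.98 and 10.49 (-3.54 ± 0.52), Calr (-2.64 ± 0.62), Atf4 (-2.54 ± 0.64) and Pdia6 (-2.14 ± 0.29). TEC array 2 was lowest for Fos, Dnajb9, Atf4 and Pdia6, and TEC array 3 for Calr, at 8.79, 8.22 and 5.17. This secretory count was 1 under normal scores of ranks and 1 with array weights. The secretory genes lower at an adjusted p under 0.05 numbered 15 as deposited. They numbered 11 after quantile normalization, centring or normal scores of ranks. Of 9 clock genes, Bhlhe40 (-3.28 ± 0.64), Arntl (-3.24 ± 0.32) and Rora (-2.61 ± 0.41) were at least 4-fold lower in TEC (median -0.80), and Dbp was higher by 1.63 ± 0.24.

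The same fraction differences were looked up in the 5 other conditions in which both fractions were measured, on other arrays that shared the normalization. Those arrays do not enter the middle-aged means, but they are part of the fit that gave the SE and of the filter that chose the genes tested. Of the 614 genes at least 4-fold higher in middle-aged TEC, 98.0% were higher in TEC of young mice at an adjusted p under 0.05, 99.7% and 99.8% in castrated mice at day 4 and day 7, and all of them in sham-castrated mice on both days. Of the 995 lower genes, the share ran from 90.6% in castrated mice at day 7 to 96.0% in sham-castrated mice at day 4, with 93.6% in young mice. With the 4-fold limit kept as well, the share of the 614 ran from 78.5% in young mice to 89.9% in sham-castrated mice at day 4. That of the 995 ran from 60.8% in castrated mice at day 7 to 78.1% in sham-castrated mice at day 4, with 69.5% in young mice. Of all 7732 genes, 28.5% were higher and 42.5% lower in middle-aged TEC at an adjusted p under 0.05. These are shares of the middle-aged comparison itself and not of the other conditions. With the 4-fold limit, the higher genes among all 7732 ran from 580 in castrated mice at day 7 to 669 in sham-castrated mice at day 4. The lower ones ran from 741 in castrated mice at day 7 to 941 in sham-castrated mice at day 4. Young mice had 597 higher and 887 lower. Only 2 of the 614 and 6 of the 995 had the opposite sign in young mice.

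Whether the fraction difference was of equal size at both ages was tested as the middle-aged difference minus the young difference, in which a constant offset between the normalizations cancels. It passed for 883 of 7732 genes (11.4%), with 607 positive (7.85%) and 276 negative (3.57%), and for 245 of the 1609 genes with a large middle-aged difference. The count depended on the arrays used, being 1241 without TEC array 3 of the middle-aged group, 538 without array 2 of young TEC and 574 without array 3 of young nonTEC. Among genes with a large middle-aged difference, the positive side was led by the chitinase-like genes Chil3 (3.56 ± 0.86) and Chil4 (3.05 ± 0.71), the small GTPase gene Diras2 (3.28 ± 0.41), Lcn2 (3.0 ± 0.53) and the leukotriene receptor gene Ltb4r1 (2.86 ± 0.49). Diras2 measured 12.11, 12.45 and 11.90 in TEC against 5.91, 6.23 and 7.33 in nonTEC of middle-aged mice, and 10.81, 10.49 and 10.51 in TEC against 8.20, 7.81 and 8.65 in nonTEC of young mice. Both fractions contributed, with TEC higher and nonTEC lower at the later age and no overlap between ages.

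On the negative side were the retinol-oxidising gene Adh7 (-3.57 ± 0.47, limma adjusted p = 6.90e-06), the B cell chemokine gene Cxcl13 (-3.43 ± 0.78), Ptx3 (-3.20 ± 0.57), the protease gene Sppl2a (-3.18 ± 0.85) and the aldehyde oxidase gene Aox3 (-2.83 ± 0.36). Adh7 measured 7.00, 5.35 and 7.82 in TEC and 9.44, 9.93 and 8.76 in nonTEC of middle-aged mice, against 7.78, 7.73 and 7.58 in TEC and 6.96, 6.81 and 6.58 in nonTEC of young mice, so that its fraction difference was -2.66 at the later age and 0.91 in the young. Ptx3 was near the low end of TEC arrays at both ages, with 10.68 to 12.13 in middle-aged nonTEC and 7.21 to 8.81 in young nonTEC. In middle-aged TEC, Cxcl13 was lowest on array 2, at 5.61 against 7.91 and 7.77 on arrays 1 and 3, and Sppl2a was low on arrays 2 and 3, at 5.89 and 4.85 against 8.45 on array 1.

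The gap between the fractions passed the test of a difference with age for 11.4% of all genes. It did so for 6 of 22 epithelial structure genes (median 0.55), 3 of 7 epithelial regulators (median -0.30) and 5 of 20 medullary genes (median 0.26). It also passed for 6 of 10 class II genes (median 0.91) and 4 of 9 cortical TEC genes (median 1.42). The count was 2 of 12 cornified genes (median -0.38), 1 of 7 Aire-dependent antigens (median 0.08) and none of 9 tuft and neuroendocrine genes (median -0.09). Some members of these lists that passed had a wider gap in middle-aged mice. Krt8 differed by 4.79 in middle-aged and 3.29 in young mice (difference of differences 1.49 ± 0.38, limma adjusted p = 0.00897), and its young values were 13.36, 13.33 and 13.34 in TEC against 9.80, 9.63 and 10.73 in nonTEC. Aire gave 2.02 ± 0.42, Krt18 1.62 ± 0.36, Fezf2 1.42 ± 0.32 and H2-Eb1 0.99 ± 0.28. For each of these 5 genes every young nonTEC array lay above every middle-aged nonTEC array. The young nonTEC arrays also had more transcripts of other cell types: the mean of the 5 B-lineage genes was 4.91 to 5.67 on middle-aged and 7.59 to 9.11 on young nonTEC arrays, that of the 6 pan-leukocyte genes 7.67 to 8.67 and 10.21 to 10.40, and that of the 22 epithelial structure genes 5.88 to 6.44 and 6.45 to 6.90. The part of these cells in the change of the gap was not tested. Mesenchymal genes went both ways. The gap of Col3a1, -5.48 in middle-aged and -7.37 in young mice, and that of Bmp4, -3.63 and -5.80, were smaller at the later age (1.89 ± 0.42 and 2.17 ± 0.42), whereas that of Prrx1 was larger (-1.15 ± 0.36). Bmp4 measured 8.05 to 8.26 in middle-aged TEC and 5.71 to 6.05 in young TEC, with nonTEC at 11.56 to 11.97 and 11.64 to 11.75.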

How the data were processed

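RNA of sorted cells was measured on 41 Illumina bead arrays, per the labels' protocols after amplification to biotin-labelled cRNA. The authors deposited normalized intensities on a log scale, taken as log2 from their range, and limma is listed, with neither role nor version, per the submitters' processing notes. How background was corrected or probes were filtered is not given in the sources used here. A probe has values on every array of a fraction or on none, and array quantiles match within but not between fractions, from which separate normalization was read. Of 24671 probes, 18386 had values in both fractions, and 20825 listed 1 gene. Each of 10543 genes was represented by its brightest shared probe. The 7732 genes with a group mean above 7.24, the median of all values, were tested in limma 3.58.1 (R 4.3.3): group means over 41 arrays in 14 groups, 27 residual degrees of freedom, a mean-variance trend and Benjamini-Hochberg adjustment over all 7732. A call needed an adjusted p under 0.05 and, for large differences, 2 on the log2 scale. The fit was tested on simulated data. No array was left out, and the 32 gene lists are described by counts and medians.

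Members, lists and tests were chosen with earlier results of these data known. Genes named were the 12 of largest difference in each direction with arrays that did not overlap (clone names and uncharacterised loci left out), up to 4 members per list, a fixed set of thymic genes and 5 per direction for the age difference; others are said in the text to be chosen after their values were seen or complete a count, and Cd74, Ciita, Ctsl, Prss16, H2-Aa, Ltc4s, Myh11 and Upk3b were named that way too. Alternatives were other normalizations, filters, probe rules, fits, weights, a replicate block and left-out arrays. Same-numbered TEC and nonTEC arrays did not deviate together (correlations of -0.10 to 0.056 in middle-aged mice), and no label pairs them. Promoter windows came from RefSeq on GRCm38.p6 (32851 windows), searched on both strands for 9 motifs, not all of which are described.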

Additional observations from a re-analysis of the deposited data

Results flagged for a closer look

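The fraction difference (TEC minus nonTEC, log2) of 50 of the 153 named genes differed between middle-aged and young mice in limma's test of the difference itself, with Benjamini-Hochberg adjusted p under 0.05 over 7732 genes, of which 883 (11.4%) passed. Up to 10 of the named genes were chosen for the size of this difference. The value given for each gene is the middle-aged difference minus the young one. All tests share the same 6 young arrays, and some of these genes were known from earlier results of these data.

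Of 22 epithelial structure genes 6 passed, and of 7 epithelial regulators 3, with medians over all tested members of 0.55 and -0.30. Among named epithelial genes that passed, the gap was wider in middle-aged mice for 7: Krt8 differed by 1.49, Krt18 by 1.62, Cldn4 by 1.51, Rab25 by 1.04, Elf3 by 1.18, Trp63 by 0.90 and Pax1 by 1.29. Beside Elf3 and Trp63, the other regulator that passed was not among these named genes. Its value lay below the list median of -0.30, so its gap was narrower in middle-aged mice. Of medullary and cortical TEC genes, Aire differed by 2.02, Csn2 by 1.57, Fezf2 by 1.42, Tbata by 1.81 and Cd83 by 1.86. Class II genes had smaller values, of 0.80 for H2-DMb1, 0.99 for H2-Eb1, 1.05 for H2-DMa and 1.12 for H2-Oa. Diras2 differed by 3.28.

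Leukocyte and myeloid genes were flagged in the same direction. The values were 3.89 for Mzb1, 3.62 for Vpreb3, 3.36 for Igll1 and 1.69 for Cd79b among B-lineage genes. They were 1.74 for Cd52, 1.68 for Arhgdib and 1.32 for Rac2 among pan-leukocyte genes, and 1.72 for Lyz1, 3.56 for Chil3, 3.05 for Chil4, 2.86 for Ltb4r1 and 3.0 for Lcn2 among myeloid and inflammatory ones. The fraction difference of Mzb1 was 1.03 in middle-aged and -2.86 in young mice, that of Vpreb3 1.64 and -1.98, that of Igll1 1.93 and -1.43, and that of Chil3 2.35 and -1.21. Chil3 was high on 1 middle-aged nonTEC array, at 7.82 against 4.46 and 4.60. Plk1, a mitotic kinase gene, differed by 1.49, Mcam by 1.61 and the neurotrophin receptor gene Ngfr by 2.12.

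Mesenchymal and vascular genes went both ways. A negative gap was smaller in middle-aged mice for Col3a1 (1.89), Bmp4 (2.17), Eng (2.02) and Nrp1 (1.27). It was larger for Ptx3 (-3.20), Ifi205 (-2.10), Pcolce2 (-1.94), Tek (-1.73), Lrrn4cl (-1.52), Prrx1 (-1.15), Runx1t1 (-0.95), Cxcl13 (-3.43) and Aox3 (-2.83), and for the globin genes Hbb-bt (-1.66) and Hba-a1 (-1.58). For Adh7 (-3.57) and Sppl2a (-3.18) the fraction difference was negative in middle-aged mice, at -2.66 and -2.58, against 0.91 and 0.60 in young ones, of which that of Sppl2a did not pass the test. Acta2 differed by -1.52, with a middle-aged difference of -0.31 that did not pass the test and changed sign with the scaling.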

How the results depend on the processing

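The count of genes at least 4-fold higher in TEC ran from 516 to 767 over all alternatives and that of genes at least 4-fold lower from 655 to 1106, against 614 and 995. Leaving out 1 array of the 6 gave 565 to 648 and 897 to 1106. Under normal scores of ranks the lower count was 655, with 712 higher, so that 52.1% of large differences were higher. The count of genes whose gap differed with age, 883, was the least stable: it was 1573 with array weights, 1656 without the 4 TEC arrays that stood apart, 482 with the replicate block, 113 with only the 12 arrays compared (1335 at an unadjusted p under 0.05) and 496 without middle-aged TEC arrays 2 and 3, an alternative chosen after seeing the data. Leaving out 1 array gave 538 to 1241. The block on condition and number otherwise gave 613 higher and 995 lower. The sign of Acta2 turned to 0.17 after quantile normalization, 0.012 after centring and 0.14 under normal scores. These scalings moved the median of all genes, which was -0.25, to 0.10 to 0.13. Of the named genes' repeats, 2813 kept direction and call, 79 lost the call, 3 gained one and 3 reversed, and the cause was not tested. No detection calls were used here, so the values of dim probes bound no fold.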
